A study of Mus musculus with 10 samples.

Results

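Oxidative stress defence genes were followed in regulatory T (Treg) cells from lymph nodes and from tumours. The 10 genes were taken by name from a count table of 55291 genes: Hmox1, Nqo1, Txnrd1, Gclc, Gclm, Srxn1, Prdx1, Gpx4, Mt1 and Mt2. All 10 passed the filter on low counts, which left 20068 genes for testing. The libraries were made from total RNA of sorted Treg cells of Foxp3YFP-cre mice, whose Foxp3 locus carries a fluorescent reporter fused to Cre, so every group shares that allele. LN libraries (n = 4) came from lymph nodes of mice without a tumour and without treatment. Hepa1-6 libraries (n = 4) came from tumours of a mouse hepatoma line, taken on day 23 after injection under the skin. E.G7 libraries (n = 2) came from tumours of a mouse T lymphoma line that derives from EL4 cells, taken on day 21 after injection by the same route. Tumour Treg cells were sorted from CD4+ T cells among the tumour-infiltrating lymphocytes. Tissue, tumour line and day differ together between the groups, and their parts cannot be told apart. The labels give no age or sex, nor whether each replicate is an animal of its own. The p-values thus rest on the spread among these libraries, which may be technical.

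Cells meet reactive oxygen species with enzymes that reduce peroxides, with small thiols such as glutathione and thioredoxin, and with proteins that hold metals. Many of these genes are switched on by NRF2, a transcription factor that KEAP1 marks for destruction in resting cells and that binds antioxidant response elements in promoters and enhancers. Metallothioneins are also driven by MTF1, which senses zinc and binds metal response elements. In T cells these pathways set the supply of reduced cysteine and glutathione on which activation and proliferation draw.

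Promoter sequences from RefSeq (GRCm38.p6, the assembly also named mm10) are shown for genes of both element types, because the results below turn on the metallothioneins, Srxn1, Prdx1, Txnrd1 and Gclm. Of the 10 genes, 8 had an entry, with 13 promoters in all, each running from 250 bases before to 50 bases after a start site. The 2 metallothionein promoters are given first, to 30 bases after the start, read 5′ to 3′. Capitals mark matches to the metal response element core, TGCGCNC or TGCACNC, on either strand.
Mt1 promoter, chr8:94178839-94179118, plus strand: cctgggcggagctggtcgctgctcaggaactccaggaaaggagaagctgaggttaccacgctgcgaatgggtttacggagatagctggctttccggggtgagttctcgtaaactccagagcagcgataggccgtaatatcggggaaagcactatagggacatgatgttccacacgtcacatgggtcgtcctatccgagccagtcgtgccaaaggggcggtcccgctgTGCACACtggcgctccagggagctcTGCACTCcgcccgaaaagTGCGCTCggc
Mt2 promoter, chr8:94172368-94172647, plus strand: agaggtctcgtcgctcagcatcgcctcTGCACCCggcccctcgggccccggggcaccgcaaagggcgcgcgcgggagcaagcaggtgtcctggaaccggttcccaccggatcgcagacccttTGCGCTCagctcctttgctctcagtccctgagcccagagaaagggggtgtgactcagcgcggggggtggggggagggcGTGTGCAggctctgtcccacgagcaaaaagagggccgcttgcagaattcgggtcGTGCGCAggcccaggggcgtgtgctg
The Mt1 promoter held 3 matches and the Mt2 promoter held 4. The Gclm promoter also held 3 and the Srxn1 promoter 1, so such matches were not limited to the metallothioneins. At least 1 match was present in 25.7% of all 32851 promoters of this length, and at least 4 in 0.517%. The next windows show matches to TGANNNNGC, again on either strand and in capitals. This is a loose form of the antioxidant response element core, because the base after TGA is left free.
Srxn1 promoter, chr2:152105351-152105389, plus strand: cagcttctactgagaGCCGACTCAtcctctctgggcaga
Srxn1 promoter, chr2:152105464-152105502, plus strand: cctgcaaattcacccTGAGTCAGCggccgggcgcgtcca
Prdx1 promoter, chr4:116685451-116685489, plus strand: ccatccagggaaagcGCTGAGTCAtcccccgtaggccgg
Txnrd1 promoter, chr10:82859099-82859137, plus strand: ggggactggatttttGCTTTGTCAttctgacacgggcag
Txnrd1 promoter, chr10:82860242-82860280, plus strand: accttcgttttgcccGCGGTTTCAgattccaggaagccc
Gclm promoter, chr3:122245408-122245446, plus strand: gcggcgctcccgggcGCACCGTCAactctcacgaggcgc
Mt2 promoter, chr8:94172524-94172562, plus strand: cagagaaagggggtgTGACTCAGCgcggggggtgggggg
The first capital lies at position -158 and -45 in Srxn1, -133 in Prdx1, -92 and -84 of separate Txnrd1 promoters, -134 in Gclm and -79 in Mt2, counted from the start site. Srxn1 held 4 such matches and Prdx1 held 2, not all of them shown, and Gclm and Mt2 held 1 each. In Gclm the match overlaps one of the metal response element matches. The core was present in 41.3% of all promoters of this length and at least 4 times in 0.301%. The Nqo1 and Gpx4 windows held neither of the 2 patterns searched. A match is a run of letters and no measurement of binding.

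In Hepa1-6 libraries all 10 genes were higher than in LN, and 0 were lower. Across all genes tested, 37% were called higher and 31.1% lower in that comparison. The median log2 fold change was 2.42 over the 10 genes and 0.04 over all genes. In E.G7 libraries 8 of the 10 were higher than in LN and 0 were lower, beside 32.7% higher and 27.2% lower over all genes. The median log2 fold change was 1.91 over the 10 and 0.01 over all genes. Of all calls in E.G7 against LN, 54.6% were higher, and 68.1% when libraries were scaled to pan T cell genes, which moved the median of all genes to log2 0.27 and called 9 of the 10 genes higher. Gclc and Gclm, the subunits of the enzyme that starts glutathione synthesis, were the 2 that were not called there. Between the tumours, Hmox1, Gclm, Srxn1 and Prdx1 were higher in Hepa1-6, Mt1 and Mt2 were higher in E.G7, and the other 4 were not called. Over all genes tested, 26.1% were called higher in Hepa1-6 than in E.G7 and 19.6% lower. The majority direction of all calls turned with the scaling: higher calls were 57.1% of calls between the tumours and 48.3% under pan T cell scaling, and 54.3% of calls in Hepa1-6 against LN and 45% under upper-quartile scaling. Both comparisons with lymph nodes use the same 4 LN libraries, so they are not independent of each other. A call is an adjusted p below 0.05 in edgeR's quasi-likelihood test, and levels below are TMM-scaled CPM (read counts of a gene scaled to a common library size).

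**Figure D1:**
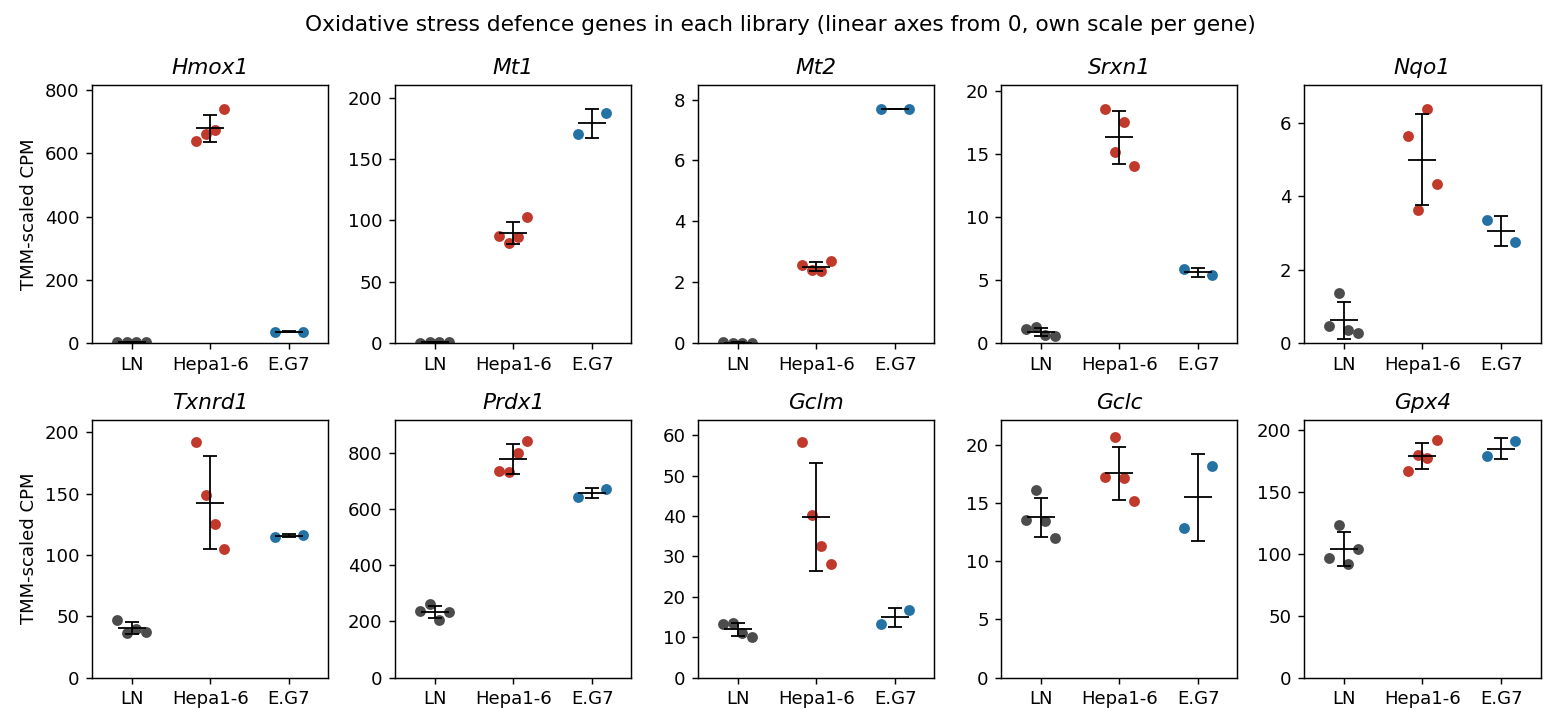
Level of each of the 10 genes in every library, in TMM-scaled CPM on linear axes that start at 0 with a scale of their own. Points are libraries of LN (n = 4), Hepa1-6 (n = 4) and E.G7 (n = 2), and bars are the group mean ± SD. Hmox1 reaches 640 to 741 CPM in Hepa1-6 libraries, while Mt1 and Mt2 are highest in E.G7 libraries.

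Transcripts that mark other cell types were present beside Treg genes, and their sums differed between the groups. Library totals ran from 22665563 to 24472849 counts for LN and from 26224286 to 26665325 for Hepa1-6, and were 26585350 and 26663336 for E.G7. The summed level of 8 Treg genes was 3648 to 3823 CPM in LN, 4557 to 4725 in Hepa1-6 and 3709 to 3775 CPM in E.G7, but its members did not move together. Ctla4 and Tnfrsf18 were higher in both tumours than in LN, while 5 of the 8 were lower in Hepa1-6 and 6 in E.G7. Foxp3 itself was at 109 ± 10.8 CPM in LN, 82.02 ± 11.0002 in Hepa1-6 and 50.2 ± 4.34 CPM in E.G7 (SD, n = 4, 4 and 2). The 14 macrophage and neutrophil genes summed to 25.1 to 36.7 CPM in LN, with Ly6g and S100a9 at 0, to 3797 to 4095 CPM in Hepa1-6 and to 734 to 765 CPM in E.G7, and 14 and 13 of them were higher in these tumours than in LN. The 10 dendritic cell and MHC class II genes, all higher in both tumours, summed to 158 to 181 CPM, 9566 to 9954 CPM and 1733 to 1791 CPM in the order LN, Hepa1-6, E.G7. In that order CD8 T and NK cell genes summed to 29.8 to 34.4, 516 to 556 and 145 to 146 CPM, and erythroid genes to 1.93 to 4.62, 33.8 to 39.1 and 9.03 to 9.09 CPM.

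The 11 hepatoma genes summed to 29.9 to 36.8 CPM in LN, 3251 to 3351 CPM in Hepa1-6 and 238 to 258 CPM in E.G7, with Serpina1a at 0 throughout and Ttr at 0 in E.G7. In E.G7 that sum was mostly Apoe (128 ± 11.01 CPM) and Trf (115 ± 3.63 CPM), while Alb was at 0.0554 ± 0.0258 CPM there (SD, n = 2) and at 370 ± 9.96 CPM in Hepa1-6 (SD, n = 4). Of 11 stroma and endothelium genes, 10 were higher and Pecam1 was lower in each tumour than in LN. Their sums were 223 to 240 CPM in LN, where Pecam1 gave 228 ± 8.35 CPM (SD, n = 4), 1117 to 1208 CPM in Hepa1-6 and 137 to 166 CPM in E.G7. The 6 thymocyte and T lymphoma genes summed to 17.6 to 20.01 CPM in LN, 64.2 to 75.4 in Hepa1-6, mostly Cd8b1 (66.5 ± 4.74 CPM there and 16.1 ± 1.11 in LN, SD, n = 4 each), and 196 to 205 CPM in E.G7, with Rag1 at 0 in every group. Trap1a was at 0.0488 ± 0.0488 CPM in LN, 0.0516 ± 0.103 in Hepa1-6 and 127 ± 7.92 CPM in E.G7 (SD, n = 4, 4 and 2). Dntt was at 2.30 ± 0.393, 2.84 ± 0.172 and 46.6 ± 4.50 CPM, and neither gene was called between Hepa1-6 and LN. B cell genes, 7 in number, summed to 849 to 961 CPM in LN, 376 to 447 CPM in Hepa1-6 and 632 to 641 CPM in E.G7, and 3 were higher and 3 lower in each tumour. A list of 10 genes that respond to cell handling summed to 3796 to 4135 CPM, 10673 to 11079 CPM and 6382 to 6592 CPM in the same order. The part of other cells and of handling in the differences below was not tested, and in bulk RNA fewer cells of a type cannot be told apart from less RNA per cell.

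Hmox1 (chr8:75093621-75100589, plus strand, mm10) encodes haem oxygenase 1, which breaks haem down to biliverdin, iron and carbon monoxide. It showed the widest difference between the tumours. The 4 LN libraries held 2.25, 3.28, 3.45 and 3.26 CPM. The 4 Hepa1-6 libraries held 640, 663, 674 and 741 CPM, and the E.G7 libraries held 35.3 and 36.1 CPM. The 3 groups did not overlap, with Hepa1-6 far above E.G7 and E.G7 above LN. Hmox1 was 222-fold higher in Hepa1-6 than in LN (log2 fold change 7.79 ± 0.10 SE, edgeR adjusted p = 4.86e-18). It was 11.6-fold higher in E.G7 than in LN (log2 3.54 ± 0.10 SE, edgeR adjusted p = 2.19e-13) and 19.0-fold higher in Hepa1-6 than in E.G7 (log2 4.25 ± 0.11 SE, edgeR adjusted p = 1.07e-13). The sums of macrophage, dendritic cell, CD8 T and NK cell, erythroid, hepatoma and handling genes had the same order of groups. Those of stroma and endothelium, thymocyte and T lymphoma, and B cell genes did not, and those of Treg genes overlapped between LN and E.G7. The part of other cells in the Hmox1 level was not tested.

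Hmox2, the haem oxygenase that most cells make at a steady level, was at 52.5 ± 3.46 CPM in LN, 54.9 ± 4.39 in Hepa1-6 and 47.5 ± 1.46 CPM in E.G7 (SD, n = 4, 4 and 2). Ranked by CPM per kilobase of exon among the 20068 genes, Hmox1 stood at 11034 in LN, 97 in Hepa1-6 and 2866 in E.G7. The ratio of Hmox1 to Hmox2 per exon length was 0.0567 to 0.0891 in LN libraries, 14.9 to 16.6 in Hepa1-6 libraries and 0.963 and 0.942 in E.G7 libraries. Within a library this ratio does not depend on scaling between libraries. Hmox1 was thus the more abundant of the pair per length in all 4 Hepa1-6 libraries and the less abundant one in the other 6.

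Mt1 (chr8:94179082-94180327) and Mt2 (chr8:94172664-94173568), neighbours on the plus strand, encode metallothioneins, small cysteine-rich proteins that bind zinc and copper and can take up oxidants. They ran against Hmox1 between the tumours. Mt1 stood at 0.277, 0.463, 0.442 and 1.09 CPM in LN, at 87.5, 81.9, 86.7 and 103 in Hepa1-6, and at 171 and 188 CPM in E.G7. Its 3 groups did not overlap, and E.G7 was the highest. Mt1 was 156-fold higher in Hepa1-6 than in LN (log2 7.29 ± 0.19 SE, edgeR adjusted p = 3.93e-13) and 312-fold higher in E.G7 than in LN (log2 8.29 ± 0.20 SE, edgeR adjusted p = 5.13e-13). It was 1.998-fold lower in Hepa1-6 than in E.G7 (log2 -0.998 ± 0.14 SE, edgeR adjusted p = 3.91e-05).

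Mt2 followed Mt1 at a much lower level. LN libraries held 1 count in all, in replicate 1 (0.0395 CPM), and a count of 0 in the other 3 libraries allows up to 0.116 to 0.121 CPM. Hepa1-6 libraries held 2.57, 2.40, 2.35 and 2.68 CPM, and both E.G7 libraries held 7.69 CPM. With 1 LN count the size of the rise is poorly bounded: the ratio of Hepa1-6 to LN was 255 with an exact 95% interval of 45.3 to 10106.9, and that of E.G7 to LN was 783 with an interval of 140 to 31018.2, for counting error only. Both rises were called (edgeR adjusted p = 5.97e-10 and 7.26e-11). Mt2 was 3.07-fold lower in Hepa1-6 than in E.G7 (log2 -1.62 ± 0.24 SE, edgeR adjusted p = 4.56e-05), with no overlap. The ratio of Mt1 to Mt2 per exon length was 16.04, 16.1, 17.4 and 18.1 in Hepa1-6 libraries and 10.5 and 11.5 in E.G7 libraries. The Mt2 level is uncertain because 432 of its exon bases (73.5%) are also exon of Gm45774 on the opposite strand, and no source used here states the strand setting of the counting. Gm45774 had 0 counts in LN, 0.474 ± 0.186 CPM (SD, n = 4) in Hepa1-6 and 2.52 ± 0.331 CPM (SD, n = 2) in E.G7. Trap1a and Dntt, given above, were likewise highest in E.G7, and were not called between Hepa1-6 and LN. The part of lymphoma cell RNA in the Mt1 and Mt2 levels was not tested.

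**Figure D2:**
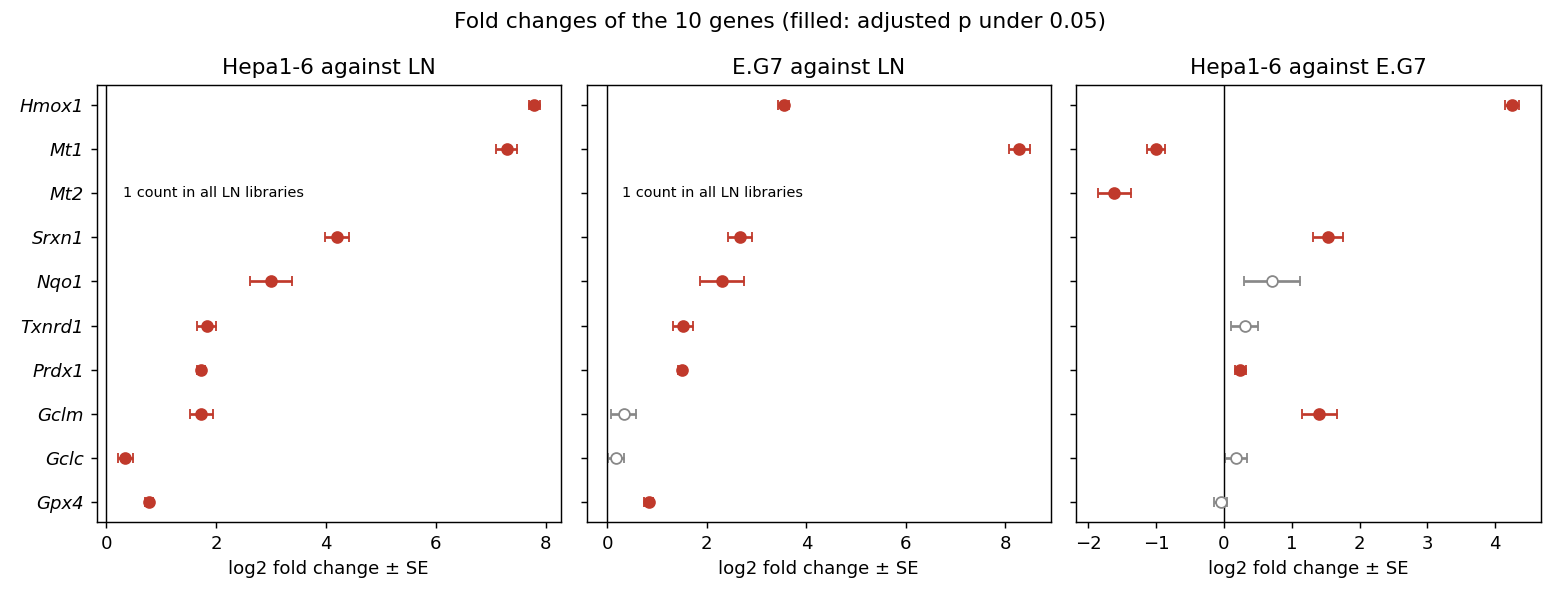
Log2 fold change ± SE of each gene in the 3 comparisons (edgeR), filled where the adjusted p is under 0.05. Mt2 is not drawn against LN, where all libraries together held 1 count. Hmox1 lies far to the right between the tumours (4.25), and Mt1 (-0.998) and Mt2 (-1.62) lie to the left.

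Srxn1 (chr2:152105516-152111376, plus strand) encodes sulfiredoxin, which repairs peroxiredoxins that peroxide has over-oxidised. LN libraries held 1.07, 1.23, 0.643 and 0.583 CPM, Hepa1-6 libraries 18.6, 15.1, 17.6 and 14.0 CPM, and E.G7 libraries 5.87 and 5.37 CPM. The groups did not overlap and had the order of Hmox1, with Hepa1-6 on top. Srxn1 was 18.4-fold higher in Hepa1-6 than in LN (log2 4.20 ± 0.21 SE, edgeR adjusted p = 4.89e-11) and 6.34-fold higher in E.G7 than in LN (log2 2.66 ± 0.24 SE, edgeR adjusted p = 1.29e-07). Between the tumours it was 2.91-fold higher in Hepa1-6 (log2 1.54 ± 0.22 SE, edgeR adjusted p = 3.17e-05). Among the 8 genes with a promoter entry, the Srxn1 promoter held the most matches to the loose form of the antioxidant response element core. Of its 4 matches, only the one at position 29, not shown above, has a C after TGA. The part of these matches in the Srxn1 level was not tested.

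Prdx1 (chr4:116685544-116700822, plus strand) encodes peroxiredoxin 1, an abundant cytosolic peroxidase and a substrate of sulfiredoxin. It was at 236, 260, 205 and 234 CPM in LN, at 736, 732, 798 and 843 in Hepa1-6, and at 644 and 670 CPM in E.G7. Both tumours were well above LN, and all Hepa1-6 libraries were above both E.G7 libraries. The rise was 3.32-fold in Hepa1-6 (log2 1.73 ± 0.07 SE, edgeR adjusted p = 2.58e-12) and 2.81-fold in E.G7 (log2 1.49 ± 0.08 SE, edgeR adjusted p = 2.08e-10). The 1.18-fold difference between the tumours passed the threshold (log2 0.24 ± 0.08 SE, edgeR adjusted p = 0.024). That call did not hold with upper-quartile scaling (edgeR adjusted p = 0.084), when scaled to pan T cell genes (0.128), with no filter on low counts (0.123), or without any 1 of Hepa1-6 replicates 3 and 4 (0.0527 and 0.0538) and E.G7 replicates 1 and 2 (0.173 and 0.0819). Of the 50-base windows of Prdx1 exons, 8.81% also occur in other genes, among them the copy Gm21399, which was at 6.01 ± 0.425 CPM (SD, n = 4) in LN and 19.98 ± 1.10 CPM (SD, n = 4) in Hepa1-6.

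Txnrd1 (chr10:82833951-82897712, plus strand) encodes the selenoprotein thioredoxin reductase 1, which keeps cytosolic thioredoxin reduced with NADPH. LN libraries held 47.3, 36.3, 39.4 and 37.6 CPM, Hepa1-6 libraries 192, 149, 125 and 104 CPM, and E.G7 libraries 115 and 116 CPM. Every tumour library was above every LN library, and the E.G7 libraries lay inside the wide Hepa1-6 range. Txnrd1 was 3.56-fold higher in Hepa1-6 (log2 1.83 ± 0.17 SE, edgeR adjusted p = 4.24e-06) and 2.88-fold higher in E.G7 (log2 1.53 ± 0.20 SE, edgeR adjusted p = 7.14e-05) than in LN. The difference between the tumours was not called (log2 0.31 ± 0.20 SE, edgeR adjusted p = 0.263). It was called without Hepa1-6 replicate 4, the lowest library of that group (log2 0.43, edgeR adjusted p = 0.0407).

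Nqo1 (chr8:107388225-107403206, minus strand) encodes a quinone reductase that is widely read as an NRF2 target. It was scarce throughout, at 0.474, 1.35, 0.362 and 0.272 CPM in LN, 5.64, 3.64, 6.40 and 4.33 CPM in Hepa1-6, and 3.34 and 2.76 CPM in E.G7. No tumour library overlapped LN, although LN replicate 2 stood well above its group. Nqo1 was 8.05-fold higher in Hepa1-6 (log2 3.01 ± 0.38 SE, edgeR adjusted p = 5.26e-06) and 4.92-fold higher in E.G7 (log2 2.30 ± 0.44 SE, edgeR adjusted p = 0.000357) than in LN. Without LN replicate 2 the log2 values were 3.73 and 3.02. The difference between the tumours was not called (log2 0.71 ± 0.41 SE, edgeR adjusted p = 0.178), with all 4 Hepa1-6 libraries above both E.G7 libraries.

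Gclc (chr9:77754535-77794485, plus strand) and Gclm (chr3:122245557-122270732, plus strand) encode the catalytic and the modifier subunit of glutamate-cysteine ligase, the rate-limiting enzyme of glutathione synthesis. The 2 subunits parted in Hepa1-6. Gclm stood at 13.3, 13.4, 11.01 and 10.02 CPM in LN, at 58.4, 40.3, 32.5 and 28.02 in Hepa1-6, and at 13.3 and 16.6 CPM in E.G7. Hepa1-6 libraries were all above the others, while E.G7 overlapped LN. Gclm was 3.33-fold higher in Hepa1-6 than in LN (log2 1.74 ± 0.21 SE, edgeR adjusted p = 9.61e-06) and 2.66-fold higher than in E.G7 (log2 1.41 ± 0.26 SE, edgeR adjusted p = 0.000728). It was not called in E.G7 against LN (log2 0.33 ± 0.25 SE, edgeR adjusted p = 0.289).

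Gclc was nearly level, at 13.5, 16.1, 13.5 and 12.003 CPM in LN, 17.2, 20.6, 17.2 and 15.2 CPM in Hepa1-6, and 12.9 and 18.1 CPM in E.G7. All 3 groups overlapped. Its 1.28-fold difference between Hepa1-6 and LN passed the threshold (log2 0.35 ± 0.14 SE, edgeR adjusted p = 0.0335). The call did not hold with upper-quartile scaling (log2 0.17, edgeR adjusted p = 0.278), with no filter (0.0511) or with a filter of 10 CPM (0.0633), and it was also lost without LN replicate 1, 3 or 4 (0.0638, 0.0661 and 0.0984) and without Hepa1-6 replicate 2 or 3 (0.12 and 0.0506). E.G7 differed from LN by log2 0.17 ± 0.17 SE (edgeR adjusted p = 0.397) and Hepa1-6 from E.G7 by log2 0.18 ± 0.17 SE (edgeR adjusted p = 0.419). The sign of the uncalled Gclc differences rested on single E.G7 libraries: against LN it turned without E.G7 replicate 2 (log2 -0.094), and between the tumours it turned without E.G7 replicate 1 (log2 -0.054).

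Within each library the ratio of Gclm to Gclc per exon length was 0.588, 0.500, 0.490 and 0.500 in LN, 2.03, 1.17, 1.13 and 1.10 in Hepa1-6, and 0.619 and 0.549 in E.G7. By this measure the modifier subunit was the more abundant transcript in all 4 Hepa1-6 libraries and the less abundant one in all others. Which of the 2 is the more abundant rests on the annotated exon lengths, 6291 bases for Gclm and 3766 for Gclc. The change of the ratio between groups does not depend on them. The ratio was 2.53-fold higher in Hepa1-6 than in LN by geometric means (two-sided exact permutation p = 0.0286, the smallest that 4 against 4 libraries allow, and 0.0858 adjusted over the 3 comparisons). Hepa1-6 against E.G7 gave 2.25-fold (exact permutation p = 0.0667, the smallest possible, adjusted 0.1) and E.G7 against LN 1.13-fold (exact permutation p = 0.267). Of Gclm exon bases, 4.71% overlap Gm17494 on the opposite strand, which was at 2.197 ± 0.935 CPM (SD, n = 4) in LN and 3.89 ± 0.772 CPM (SD, n = 4) in Hepa1-6. Of the 50-base windows of Gclm, 4.58% also occur in other genes. Among these are the far more abundant Ppia, with 277393 counts over all libraries, and Gm10123, with 49586. The part of their reads in the Gclm level and in this ratio was not tested.

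**Figure D3:**
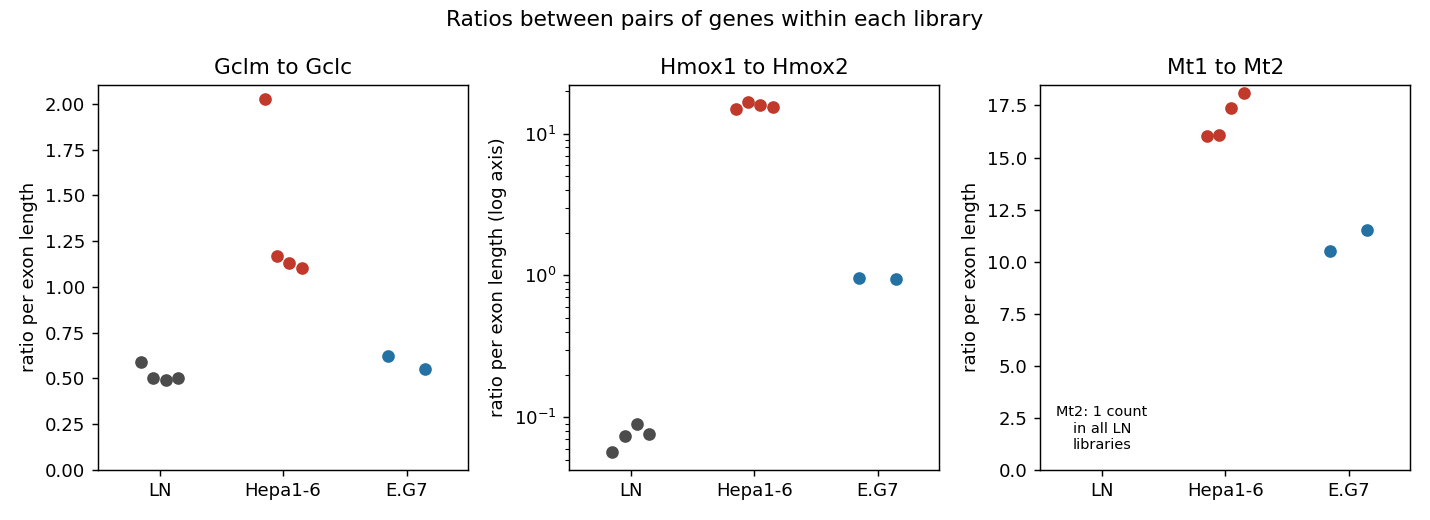
Ratios between pairs of genes within each library, per exon length: Gclm to Gclc and Mt1 to Mt2 on linear axes from 0, Hmox1 to Hmox2 on a log axis. Each point is 1 library. Gclm exceeds Gclc in the 4 Hepa1-6 libraries only, from 1.10 to 2.03.

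Gpx4 (chr10:80047166-80056439, plus strand) encodes glutathione peroxidase 4, a selenoprotein that reduces lipid hydroperoxides in membranes. It changed by the smallest fold of the 8 genes that rose in both tumours. LN libraries held 97.0, 123, 91.6 and 104 CPM, Hepa1-6 libraries 167, 180, 177 and 192 CPM, and E.G7 libraries 179 and 191 CPM. The tumour groups overlapped each other and not LN. Gpx4 was 1.72-fold higher in Hepa1-6 (log2 0.78 ± 0.08 SE, edgeR adjusted p = 3.23e-07) and 1.78-fold higher in E.G7 (log2 0.83 ± 0.09 SE, edgeR adjusted p = 1.69e-06) than in LN, and the tumours differed by log2 -0.05 ± 0.10 SE (edgeR adjusted p = 0.723). Of its 50-base windows, 34.7% occur in other genes. The copy Gpx4-ps2 was at 28.8 ± 1.91 CPM (SD, n = 4) in LN, 50.9 ± 3.67 CPM (SD, n = 4) in Hepa1-6 and 52.7 ± 1.89 CPM (SD, n = 2) in E.G7, so reads of the 2 may be shared out between them.

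Per kilobase of exon, the order of the 10 genes changed between the groups. The order of genes within a group depends on the exon length annotated for each gene. For Mt1 that length is 1246 bases, its whole span from start to end. In LN the peroxidases led, Prdx1 at 76.9 ± 7.47 and Gpx4 at 60.3 ± 8.02 CPM per kilobase (SD, n = 4), and Txnrd1 followed at 5.66 ± 0.694. Gclm and Hmox1 came next after Gclc in LN at 1.90 ± 0.268 and 1.75 ± 0.312 CPM per kilobase, which overlap within their spread, as do Mt1 at 0.455 ± 0.286, Nqo1 at 0.396 ± 0.320 and Srxn1 at 0.313 ± 0.113. In Hepa1-6 Hmox1 led at 388 ± 24.7 CPM per kilobase, before Prdx1 at 255 ± 17.5, Gpx4 at 104 ± 5.96 and Mt1 at 72.0 ± 7.32 (SD, n = 4). Gclm at 6.32 ± 2.13, Srxn1 at 5.80 ± 0.753 and Gclc at 4.66 ± 0.602 overlapped one another there. Mt2 at 4.25 ± 0.261 overlapped Gclm and Gclc. In E.G7 Prdx1 led at 216 ± 6.06 CPM per kilobase, before Mt1 at 144 ± 9.47, Gpx4 at 107 ± 4.79 and Hmox1 at 20.4 ± 0.309 (SD, n = 2). Nqo1 had the lowest mean of the 10 in both tumours, at 3.22 ± 0.801 CPM per kilobase in Hepa1-6 and 1.97 ± 0.266 in E.G7. In E.G7 it overlapped Srxn1 at 1.99 ± 0.125 and Gclm at 2.38 ± 0.375, and in Hepa1-6 its highest library overlapped Mt2 and Gclc.

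**Figure D4:**
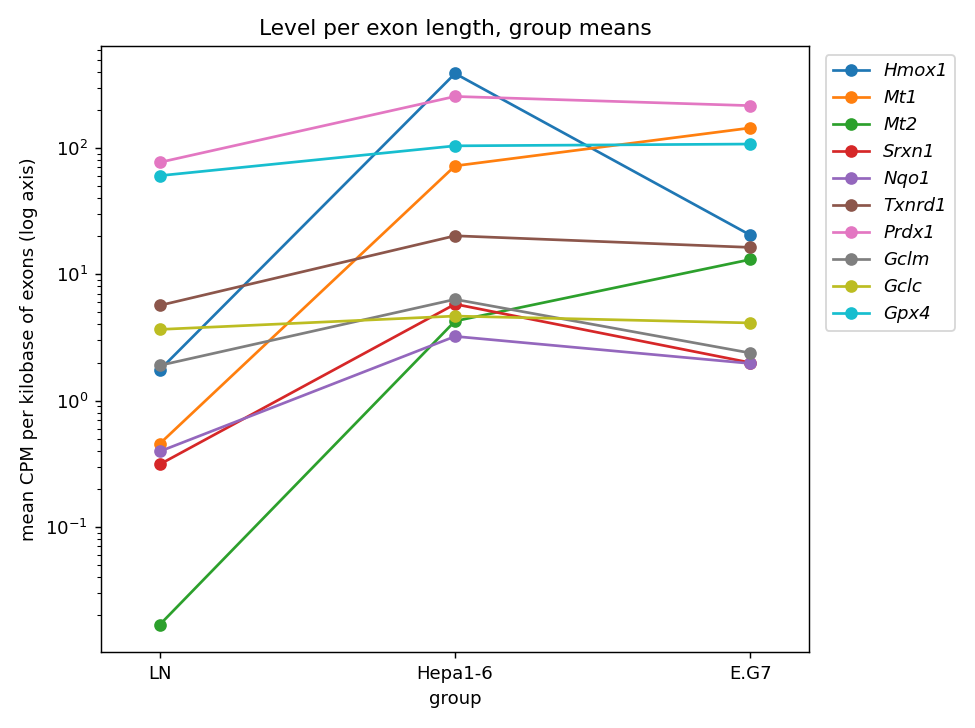
Mean CPM per kilobase of exon of each gene in LN (n = 4), Hepa1-6 (n = 4) and E.G7 (n = 2), on a log axis, with lines joining the 3 means of a gene. Hmox1 crosses from 1.75 in LN to the top of the 10 genes in Hepa1-6 (388) and lies at 20.4 in E.G7, while Gclc stays nearly flat.

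The genes also differed in how far replicates of a group spread. In Hepa1-6 the coefficient of variation was 33.7% for Gclm and 26.5% for Txnrd1, beside a median of 7.24% over the 9643 genes with a mean of at least 10 CPM in that group. Of those genes, 1.3% had a higher value than Gclm and 2.22% a higher value than Txnrd1. Nqo1 spread by 24.9%, at a mean level below that of the genes in this comparison. Gclm and Txnrd1 were both highest in Hepa1-6 replicate 1 and lowest in replicate 4. Hmox1, Prdx1 and Gpx4 spread by 6.37%, 6.85% and 5.74%, below that median.

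The genes most like each member were found by the root mean square difference of centred log2 CPM over the 10 libraries, among 10585 genes. Hmox1 was closest to Cd63, a tetraspanin of lysosomes and secretory granules, at 0.19 log2. Cd63 was at 0.587 ± 0.187 CPM in LN, 166 ± 10.2 in Hepa1-6 and 8.63 ± 0.124 CPM in E.G7 (SD, n = 4, 4 and 2). Txnrd1 was closest to Bag3 (0.14), a co-chaperone of HSP70, and then to Zc3h12a (0.19), which encodes the ribonuclease Regnase-1. Gclm was closest to Ahr (0.18), the aryl hydrocarbon receptor, Srxn1 to Rassf4 (0.23) and Mt1 to Adamts1 (0.36). Prdx1 was closest to its copy Gm21399 (0.04), while Gpx4 had Tbcb (0.06) first, with its copy Gpx4-ps2 (0.07) near it. For Nqo1, Gclc and Mt2 the closest were Gm38009 (0.42), Patl1 (0.11) and Dlx4 (0.38).

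The surrounding pathways were read from 9 lists of 110 genes, of which 109 were tested. Against LN, 77 were higher and 19 lower in Hepa1-6 (median log2 0.86), and 66 were higher and 20 lower in E.G7 (median log2 0.54). Between the tumours 51 were higher and 20 lower in Hepa1-6 (median log2 0.24). The shares called over all genes tested are those given above for each comparison.

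Of 10 NRF2 regulators, 7 were higher and 1 lower in Hepa1-6 than in LN, and 6 were higher and 2 lower in E.G7 (1 lower without E.G7 replicate 2 or under pan T cell scaling). Under upper-quartile scaling 2 were lower in Hepa1-6, with Keap1 among them (log2 -0.21, edgeR adjusted p = 0.0207). In the main fit Keap1 was not called in Hepa1-6 (log2 -0.03, edgeR adjusted p = 0.767) and was lower in E.G7 (log2 -0.34, edgeR adjusted p = 0.00655). The E.G7 call of Keap1 was lost under pan T cell scaling (edgeR adjusted p = 0.449) and without E.G7 replicate 2 (0.0857). Nfe2l2, which encodes NRF2, was at 53.9 ± 3.14 CPM in LN, 132 ± 8.15 in Hepa1-6 and 64.6 ± 3.18 CPM in E.G7 (SD, n = 4, 4 and 2). It was 2.45-fold higher in Hepa1-6 (edgeR adjusted p = 4.34e-11) and 1.20-fold higher in E.G7 (edgeR adjusted p = 0.00914, and 0.127 with upper-quartile scaling, 0.0608 with a filter of 10 CPM and 0.091 without E.G7 replicate 1). Bach2, a repressor that competes for the same kind of element and holds back effector genes in T cells, fell from 78.9 ± 5.6 CPM in LN (SD, n = 4) to 10.8 ± 1.02 CPM in Hepa1-6 (n = 4) and 19.7 ± 0.500 CPM in E.G7 (n = 2). Bach1, the related repressor of Hmox1, rose 2.51-fold in Hepa1-6 (edgeR adjusted p = 2.87e-09) and was not called in E.G7 (log2 0.25, edgeR adjusted p = 0.0641), where it passed the threshold under pan T cell scaling (log2 0.51, edgeR adjusted p = 0.00132), RLE scaling (0.0326), a replicate block (0.0436), a fit limited to these groups (0.0402) and without Hepa1-6 replicate 4 (0.0312), and in DESeq2 (adjusted p = 0.0324).

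Of 22 glutathione genes, 17 were higher and 3 lower in Hepa1-6 than in LN, and 14 were higher and 3 lower in E.G7. Slc7a11, the cystine importer that feeds glutathione synthesis, was at 0.0886 ± 0.0213 CPM in LN, 41.2 ± 2.52 in Hepa1-6 and 39.2 ± 4.50 CPM in E.G7 (SD, n = 4, 4 and 2). It rose in both tumours (edgeR adjusted p = 4.12e-16 and 5.23e-15) and the difference between them was not called (log2 0.07, edgeR adjusted p = 0.626), with a sign that turned under pan T cell scaling. Gsr, glutathione reductase, rose 4.01-fold in Hepa1-6 (edgeR adjusted p = 1.67e-09) and 2.22-fold in E.G7 (edgeR adjusted p = 5.63e-06). Mgst1, a membrane-bound glutathione transferase abundant in liver, was at 53.6 ± 5.46 in Hepa1-6 and at 0.0990 ± 0.0704 and 1.55 ± 0.512 CPM in LN and E.G7.

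Of 13 thioredoxin and peroxiredoxin genes, 7 were higher and 5 lower in Hepa1-6 than in LN, and 9 were higher and 4 lower in E.G7, and the 5 came to 3 under pan T cell scaling. Txn1, the thioredoxin that Txnrd1 reduces, was at 83.6 ± 9.22 CPM in LN, 269 ± 23.4 in Hepa1-6 and 397 ± 16.8 CPM in E.G7 (SD, n = 4, 4 and 2), and was higher in E.G7 than in Hepa1-6 (edgeR adjusted p = 0.000117). Txnip, which binds and inhibits thioredoxin, fell from 916 ± 31.0 CPM in LN (n = 4) to 284 ± 11.2 CPM in Hepa1-6 (n = 4) and 271 ± 0.332 CPM in E.G7 (n = 2). Catalase (Cat) was 1.14-fold lower in Hepa1-6 than in LN (edgeR adjusted p = 0.0103) and 1.18-fold lower in E.G7 (edgeR adjusted p = 0.0125), and neither call held when libraries were scaled to pan T cell genes, where the E.G7 value turned to log2 0.017. The E.G7 call of Cat was also lost without E.G7 replicate 1 (edgeR adjusted p = 0.0953) or 2 (0.0507). Of the 10 superoxide and NADPH genes, to which Cat belongs, 9 were higher and 1 lower in Hepa1-6, and 8 were higher and 1 lower in E.G7 (0 lower without either E.G7 replicate). Under pan T cell scaling 0 were lower in either tumour.

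Of 14 haem and iron genes, 11 were higher and 1 lower in Hepa1-6 than in LN, and 8 were higher and 2 lower in E.G7 (1 lower with a replicate block or without LN replicate 3 or E.G7 replicate 1, and 0 without E.G7 replicate 2 or under pan T cell scaling). Fth1 and Ftl1, the ferritin chains that store the iron haem oxygenase frees, rose 5.19-fold and 4.84-fold in Hepa1-6 and 2.06-fold and 2.19-fold in E.G7 (edgeR adjusted p = 2e-16, 1.58e-15, 5.27e-11 and 1.02e-10). Tfrc, the transferrin receptor, was at 46.5 ± 3.50 CPM in LN, 96.6 ± 6.83 in Hepa1-6 and 414 ± 41.6 CPM in E.G7 (SD, n = 4, 4 and 2), the order of Mt1 and not of Hmox1. Slc40a1, the iron exporter that macrophages express strongly, was at 63.6 ± 4.14 CPM in Hepa1-6 (n = 4) and at 0.149 ± 0.0963 and 0.259 ± 0.0541 CPM in LN and E.G7.

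Of 14 zinc handling genes, 8 were higher and 2 lower in Hepa1-6 than in LN, and 5 were higher and 4 lower in E.G7 (2 lower without E.G7 replicate 2, 1 lower under pan T cell scaling, and 2 higher with a filter of 10 CPM). The zinc handling genes in Hepa1-6 came to 5 higher and 4 lower under upper-quartile scaling and to 5 higher with a filter of 10 CPM. Mtf1, the activator of metallothionein genes, was not called in any comparison, at 26.0 ± 1.77 CPM in LN, 28.2 ± 2.32 in Hepa1-6 and 25.3 ± 2.60 CPM in E.G7 (SD, n = 4, 4 and 2). Slc39a6, a zinc importer, was at 43.7 ± 1.81, 69.0 ± 7.44 and 194 ± 10.7 CPM in the same order, and was lower in Hepa1-6 than in E.G7 (log2 -1.49, edgeR adjusted p = 9.71e-10), as Mt1 and Mt2 were. It was the only gene of the 14 called lower there, while 4 were higher and 9 were not called. Slc39a1 was among the 4 that were higher (log2 0.63, edgeR adjusted p = 5.98e-06).

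Of 12 genes that encode selenoproteins or factors of their synthesis, 6 were higher and 4 lower in Hepa1-6 than in LN, and 5 were higher and 3 lower in E.G7. Under pan T cell scaling 8 of these 12 genes were higher in E.G7 and 2 were lower in Hepa1-6. Of 8 lipid peroxide genes tested, 7 were higher and 1 lower in Hepa1-6 (2 lower when either E.G7 replicate was left out of the joint fit, or with no filter), and 7 were higher and 0 lower in E.G7. Aifm2, which encodes the ferroptosis suppressor FSP1, rose 6.35-fold and 3.50-fold (edgeR adjusted p = 5.13e-09 and 4.07e-06). Of 6 phagocyte oxidase genes, 5 were higher and 1 lower in Hepa1-6, and 4 were higher and 1 lower in E.G7 (0 lower under pan T cell scaling). Cybb, the catalytic subunit of the phagocyte oxidase, was at 27.1 ± 1.42 CPM in LN, 416 ± 15.6 in Hepa1-6 and 92.3 ± 11.3 CPM in E.G7 (SD, n = 4, 4 and 2), beside the macrophage and neutrophil sums given above.

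**Figure D5:**
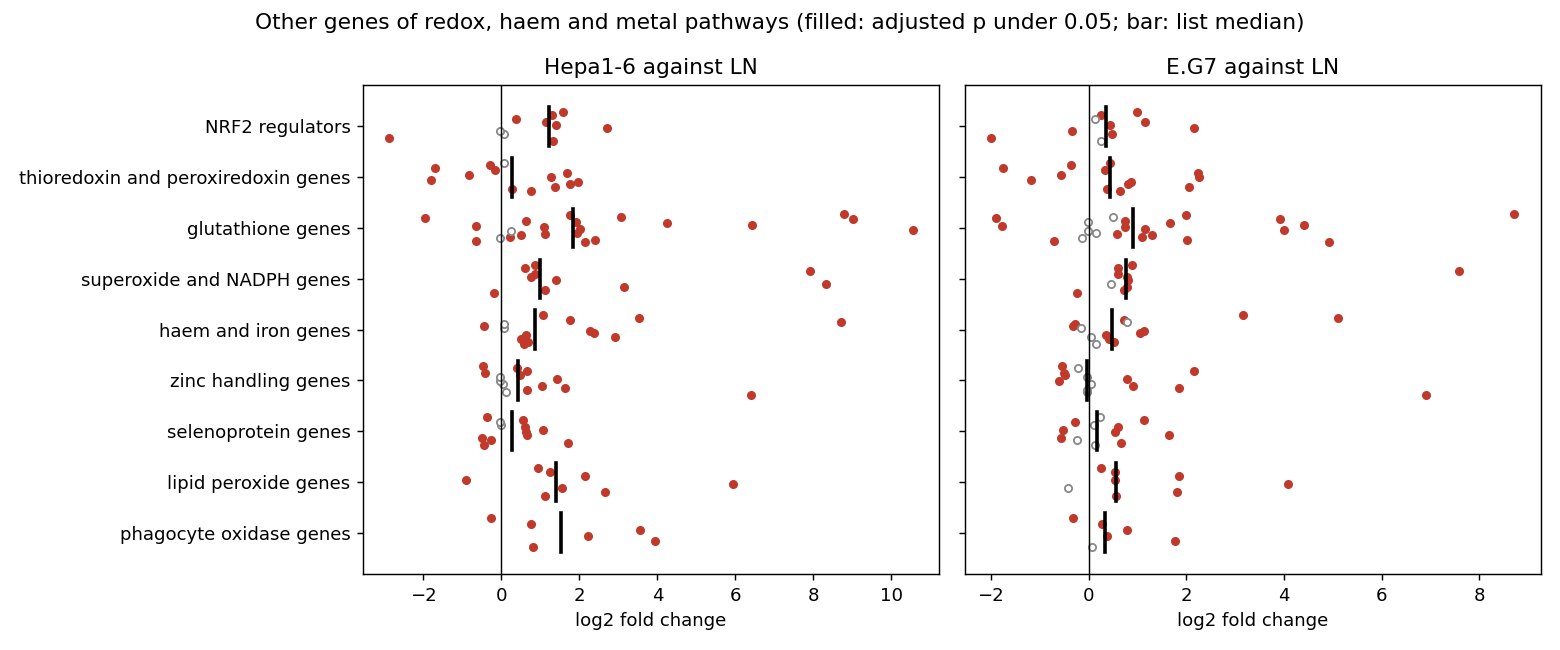
Log2 fold change of the other genes of 9 redox, haem and metal lists in Hepa1-6 (left) and E.G7 (right) against LN. Each point is 1 gene, filled where the edgeR adjusted p is under 0.05, and the bar is the list's median. Glutathione genes have a median of 1.83 in Hepa1-6 and 0.92 in E.G7, and zinc handling genes have 0.43 and -0.03.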

How the data were processed

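RNA of 10 libraries of sorted Treg cells was sequenced on a BGISEQ-500, per the labels' protocols. The authors deposited whole-number read counts per gene for 55291 genes, with exon positions in the featureCounts layout, per the file headers. They also deposited FPKM values of 12930 genes per library, a measure scaled by exon length and by library size. Whether these values derive from the deposited counts was not tested. The submitters' processing notes name HISAT2, featureCounts, Subread, RSEM, DESeq2 and mm10. No strand setting is given in these sources.

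Counts were analysed with edgeR 4.0.16 in R 4.3.3: filterByExpr, TMM scaling, 1 robust quasi-likelihood fit over the 10 libraries, and Benjamini-Hochberg adjustment over 20068 genes at 0.05. CPM is TMM-scaled, and the SE was taken as the log2 value over the root of the F statistic. The steps were run on simulated counts in which a small share of genes changed, up or down at random, with the same dispersion for all genes. That setting does not cover differences in much of the table or the choice of scaling. Within a group every pair of libraries differed by more than sampling noise (chi-square per degree of freedom 7.41 to 18.9). Copies were sought as 50-base exon windows found in other genes. Intervals and floors (3 counts) cover counting error only.

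The 10 genes and the lists were chosen with earlier results of these data known. Pathway genes were taken by a rule: 15 fixed genes, and the 2 with the smallest adjusted p of each list and comparison. These 2 were picked among genes with at least 10 CPM in the higher group. Only some of the 40 genes so taken are described above, and that further choice followed no set rule. Alternatives were other scalings, filters and tools (DESeq2 1.42.0, limma 3.58.1 on log2 values of the deposited FPKM), a replicate block, and each library left out.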

Additional observations from a re-analysis of the deposited data

Results flagged for a closer look

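In LN, Hmox1 was lowest in replicate 1, at 2.25 CPM, apart from the other 3 libraries at 3.26 to 3.45 CPM. Mt2 had its only LN count in the same library, at 0.0395 CPM. The 4 libraries of LN and of Hepa1-6 were searched this way for 10 genes each, 20 groups in all. For continuous values chance gives about 1 such gap in 20 groups. That rate does not apply to Mt2, where a single count among libraries at 0 fixes the gap. Without LN replicate 1, the log2 fold change of Hmox1 against LN was 7.67 in Hepa1-6 and 3.42 in E.G7, and both calls held. Without it Mt2 had no LN count at all.

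The response against LN differed between the 2 tumours for 6 genes, by the direct edgeR test of Hepa1-6 against E.G7. The log2 difference was 4.25 for Hmox1, 1.54 for Srxn1, 1.41 for Gclm and 0.24 for Prdx1, all higher in Hepa1-6. It was -0.998 for Mt1 and -1.62 for Mt2, lower in Hepa1-6. All 4 Hepa1-6 libraries were on the same side of both E.G7 libraries for each of the 6. Over all genes tested, 26.1% were called higher and 19.6% lower in this comparison. The share of all genes without overlap was not computed. The Prdx1 call did not hold under several alternatives, as given above.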

How the results depend on the processing

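Over 23 alternatives and the 30 tests of the 10 genes, 684 values were computed, of which 660 kept their direction and their side of the threshold, 17 fell short of it, 5 newly passed it and 2 turned sign without a call in either fit. Those 2 were Gclc in E.G7 against LN, which ran from log2 -0.094 (without E.G7 replicate 2) to 0.41 with 1 library left out, and Gclc between the tumours, from log2 -0.054 (without E.G7 replicate 1) to 0.44. The 17 belong to Gclc in Hepa1-6 against LN and to Prdx1 between the tumours. With a filter of 10 CPM, 1 gene and not 2 was lower in Hepa1-6 than in E.G7, because Mt2 did not pass that filter. In Hepa1-6 against LN, 9 to 10 of the genes were called higher when 1 library was left out. Of the 5, Gclc passed in E.G7 against LN under pan T cell scaling (log2 0.43, edgeR adjusted p = 0.0404), and Nqo1 passed between the tumours with limma on log2(FPKM + 1), filtered or not (adjusted p = 0.0422 and 0.0408). The cause was not tested. Scaling moved the median log2 fold change of all genes in Hepa1-6 against LN from 0.04 to 0.19 (pan T cell genes) and -0.13 (upper quartile).

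For the 40 pathway genes named or taken by the rule, 2668 of 2758 values kept their direction and their side of the threshold, in a repeat of these alternatives chosen after seeing the data. A total of 49 fell short, 9 newly passed and 32 turned sign, 30 of them without a call in either fit. In E.G7 against LN, under pan T cell scaling, Cat lost its call at log2 0.017 and Gsto1 gained one at log2 0.25. The others were small log2 values, given as a range where 1 library was left out. Gsto1 there was 0.036 under RLE scaling, 0.024 with no filter, 0.035 in DESeq2, 0.022 with only the groups compared, 0.0036 with the replicate block, and -0.035 to 0.042 with 1 library left out. Mtf1 there was 0.0018 under RLE scaling, 0.22 under pan T cell scaling, 0.0014 in DESeq2 and -0.14 to 0.068 with 1 library left out. In Hepa1-6 against LN, Mtf1 was -0.064 under upper-quartile scaling, and Keap1 was 0.13 under pan T cell scaling and -0.083 to 0.012 with 1 library left out. Between the tumours Cat was -0.020 under upper-quartile scaling, -0.058 under pan T cell scaling, -0.021 with no filter, -0.031 with only the groups compared and -0.0025 to 0.085 with 1 library left out. Txnip was -0.033 and -0.0064, and Slc7a11 -0.030 and -0.0034, under pan T cell scaling and with only the groups compared, and Slc7a11 was -0.0020 with the replicate block and -0.046 to 0.19 with 1 library left out. Sod1 was 0.012 with a filter of 10 CPM and -0.081 to 0.030 with 1 library left out. A test against a fold of 1.5 lowered many list counts, for example haem and iron genes higher in Hepa1-6 than in LN to 7. The ratio of Gclm to Gclc kept its direction in each comparison without any 1 library.

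Between libraries that share a replicate number, deviations from the group mean had correlations of -0.05 to 0.03. The deviations of the E.G7 libraries mirror each other by construction, so correlations with them are not independent of each other. Whether a replicate number marks a shared day or batch was not tested. With a replicate block, 10, 8 and 5 of the 10 genes were called higher in the 3 comparisons, where Txnrd1 was added between the tumours (log2 0.44, edgeR adjusted p = 0.0159).

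With 2 E.G7 libraries, and fewer than 100 counts in all LN libraries for Nqo1, Srxn1, Mt1 and Mt2, the size of the LN comparisons of these genes is the least precise.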
